A study of Arabidopsis thaliana with 12 samples.

Results

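The change in transcript levels between day 4 and day 8 of tracheary element induction was measured in suspension cells of Arabidopsis thaliana, accession Col-0. It was read from 4 of the 12 Affymetrix ATH1 arrays of the series, 2 of day 4 and 2 of day 8. Both days carry the 22 C label, and on both the cells were in fresh induction medium. It held 10 mM H3BO3 (boric acid) and 1 uM of the steroid hormone brassinolide. The comparison therefore crosses no change of labelled temperature or medium, and what differs by label is the time since transfer. The other 8 arrays are 2 untreated ones of day 0, at 22 C, and 2 each of days 2, 6 and 10, at 27 C in the same induction medium. All cells came from a culture kept with the synthetic auxin 2,4-D, which the labels do not list for the induction medium. An aliquot of that culture was added to the fresh medium. The temperature is an average daily one, and the labels do not say whether 1 culture passed between 22 C and 27 C. Of 22746 probe sets without the Affymetrix controls, 13826 were compared, namely those at or above the 40th percentile of the array in both arrays of at least 1 of the 2 days. Whether the arrays of 1 day stem from different cultures is not stated in the labels; p-values here rest on the spread between arrays, which may be technical.

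Tracheary elements are the water-conducting cells of xylem. They lay down a patterned secondary wall of cellulose and xylan under the guidance of cortical microtubules, stiffen it with lignin made from monolignols that peroxidases and laccases oxidise in the wall, and then empty themselves by a programmed death in which vacuolar and other proteases digest the contents. In induced suspension cultures only some cells take this path, and neighbouring cells can supply monolignols to the dead ones.

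Signals are given on the linear scale of the deposited table, in which arrays had been brought to a common trimmed mean of 100.01. Changes are log2 differences, day 8 minus day 4, ± the standard error of a limma fit over all 12 arrays, with n = 2 arrays on each day. A gene was called where the p-value adjusted over the 13826 probe sets was under 0.05, and "rose" and "fell" are used only of called genes. An array below its own 40th percentile, which lay between 19.2 and 22.1 on these 4 arrays, is called dim, and a gene dim on 1 day has only a bound there. Such bounds are written as at least so many fold, with each array raised to its 40th percentile first. A tested gene with a dim array on 1 of the days was tested through the other day alone, so its direction was partly given by that choice.

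Over all 22746 probe sets without the Affymetrix controls, r between log2 signals was 0.962 to 0.966 within a day, and 0.945 to 0.952 between day 4 and day 8 arrays. All 8 tracheary element markers that the annotation named, among them GUT2 (IRX10) and IRX15 of xylan synthesis, were above the limit on both days except AT5G66390 (PRX72), which was dim on day 4. The root hair expansins EXPA7 and EXPA18 were dim on all 12 arrays. The phloem gene OPS had signals of 93.0 and 112 on day 4 and 176 and 139 on day 8 (log2 difference 0.61 ± 0.15, adjusted p = 0.0133), a call that was lost without day 4 replicate 1 (adjusted p = 0.109) or day 8 replicate 1 (adjusted p = 0.116), and its part in the results below was not tested.

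Of the 13826 probe sets, 1772 (12.8%) were higher and 1646 (11.9%) lower on day 8 than on day 4, 24.7% in all. More rises than falls were of 2-fold or more: 598 probe sets were at least 2-fold higher and 264 at least 2-fold lower, or 365 and 153 where no array of the 2 days was dim. In bulk RNA, a change in the number of cells of a type and a change in RNA per cell cannot be told apart. The numbers of calls shrank when an array was left out, to 1121 higher and 942 lower without day 4 replicate 1, 1240 and 994 without day 4 replicate 2, 1209 and 1102 without day 8 replicate 1, and 1037 and 923 without day 8 replicate 2.

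The balance of rises and falls depended on scaling. Rises made up 51.8% of the calls as deposited, 47.7% after quantile normalization and 30.6% with each array centred on its median, which shifted the median over all tested probe sets from 0.015 to -0.123. All 1646 falls were called with centring too, with 2830 falls in all, while 1245 of the 1772 rises were still called and 0 turned into falls. The balance also went with signal level. Of the 3457 brightest tested probe sets 9.95% rose and 23.5% fell, with a median change of -0.085, and of the 3457 dimmest 13.9% rose and 6.07% fell, with a median of 0.095. After quantile normalization the medians were -0.03 and -0.044, with 635 falls and 484 rises among the brightest, against 814 and 344 before. Changes below are on the deposited scaling.

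**Figure D1:**
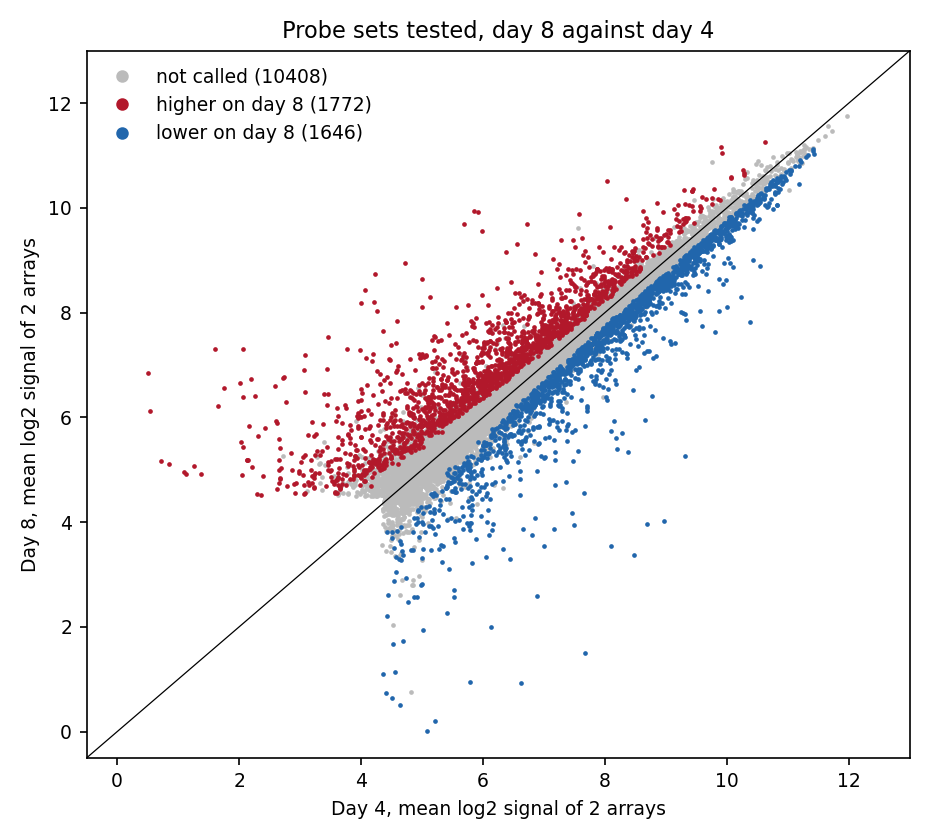
Mean log2 signal of the 2 day 8 arrays (vertical axis) against that of the 2 day 4 arrays (horizontal axis) for 13826 probe sets, with 1772 called higher in red, 1646 called lower in blue and the others in grey; the line marks equal signal. The empty lower left corner is the limit at the 40th percentile, so a dim value on 1 day is plotted only where the other day lay above it.

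Genes of lignin mostly stood higher on day 8 than on day 4. Of 13 genes of monolignols and their glucosides that the annotation named, 9 were tested, of which 6 rose and 0 fell. Their median log2 change was 1.84. Of the 6 that rose, 4 had their highest mean on day 6, 1 on day 8 and 1 on day 0. Of the 7462 named genes tested, 12% rose and 11.5% fell, and the median was 0.014. Counts of calls in every list below stand beside these shares. The lists were chosen with earlier results of these data known, and some, this one among them, were added after the annotation was read. Their counts are therefore a description. Of the 9, 3 entered the test through day 8 alone, so their rise was partly given by that choice. Of the other 6, BGLU46, PRX52 and HCT rose. AT5G66390, the class III peroxidase PRX72 known for its part in lignification, had signals of 11.6 and 16 on day 4 and 161 and 157 on day 8. Both day 4 arrays were dim and both day 8 arrays far above the limit, so the rise was at least 7.98-fold (log2 difference 3.55 ± 0.64, adjusted p = 0.0023). BGLU46, a beta-glucosidase that releases monolignols from their glucosides, had 31.3 and 31.6 on day 4 and 124 and 157 on day 8 (log2 difference 2.15 ± 0.15, adjusted p = 4.65e-06). Its day 4 arrays were almost level. That day 4 and day 8 arrays lie apart was a condition for naming most genes here and is no separate result. They were apart upwards in 33.6% and downwards in 30.4% of all tested probe sets. HCT, the hydroxycinnamoyl transferase at the branch towards the common monolignols, had 245 and 309.6 on day 4 and 546 and 497 on day 8 (log2 difference 0.92 ± 0.13, adjusted p = 0.000586).

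On the glucoside side, GT72B1 (UGT72B1) and UGT72E1, which attach glucose to monolignols and related phenolics, both rose from dim levels. GT72B1 had signals of 8.75 and 13.6 on day 4 and 63.2 and 90.5 on day 8, at least 3.79-fold up (adjusted p = 0.000249), and UGT72E1 9.35 and 17.9 on day 4 and 54.3 and 41.5 on day 8, at least 2.38-fold (adjusted p = 0.00584). The peroxidase PRX52 had 39.4 and 55.6 on day 4 and 159 and 178 on day 8 (log2 difference 1.84 ± 0.51, adjusted p = 0.0223). PRX52 lost its call without any 1 of the 4 arrays, with adjusted p between 0.0535 and 0.13, and UGT72E1 lost its call without day 4 replicate 1 (adjusted p = 0.0592). The other 3, UGT72E2, CCOAMT and AT5G51890, were not called. AT5G51890, the tracheary element peroxidase PRX66, had 76.0 and 92.4 on day 4 and 76.0 and 139.8 on day 8 (log2 difference 0.30 ± 0.38, adjusted p = 0.61). These groups overlapped, and its day 6 arrays stood far higher, at 501 and 518.

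Many secondary wall genes rose as well. Of 16 tested loci known for expression with secondary walls, 7 rose and 1 fell, with a median of 0.93, and 1 of the 7 was tested through day 8 alone. This list too was added after the annotation was read, with earlier results of these data known. The largest rise without a dim array on either day among all named genes was that of AT4G08160, a xylanase of glycoside hydrolase family 10, which had 39.9 and 101 on day 4 and 783 and 729.8 on day 8 (log2 difference 3.58 ± 0.42, adjusted p = 0.000162). The 2 day 4 arrays differed from each other by more than the day 8 arrays did. AT5G04310, a pectate lyase-like protein, had 7.21 and 16.8 on day 4 and 167 and 205 on day 8 and rose at least 9.28-fold from dim (adjusted p = 2.96e-05). The GDSL lipase AT1G54790 had 73.0 and 94.1 on day 4 and 221 and 232 on day 8 (log2 difference 1.45 ± 0.20, adjusted p = 0.000417). The loci AT1G58070, AT2G41610 and AT5G60720, given no role here, rose by 1.76 ± 0.30, 1.61 ± 0.27 and 1.49 ± 0.35. The last of them lost its call without day 4 replicate 1 (adjusted p = 0.0844) or day 8 replicate 2 (adjusted p = 0.0592).

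The member that fell was AT1G79620, a leucine-rich repeat receptor kinase of developing vessels known as VRLK1. Its signals were 413 and 503 on day 4 and 155 and 135 on day 8 (log2 difference -1.66 ± 0.27, adjusted p = 0.00123). In the mean over arrays it was highest on day 4, whereas of the 7 loci that rose 6 were highest on day 6 and 1 on day 8. The plot of wall and lignin genes by day shows this order.

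**Figure D2:**
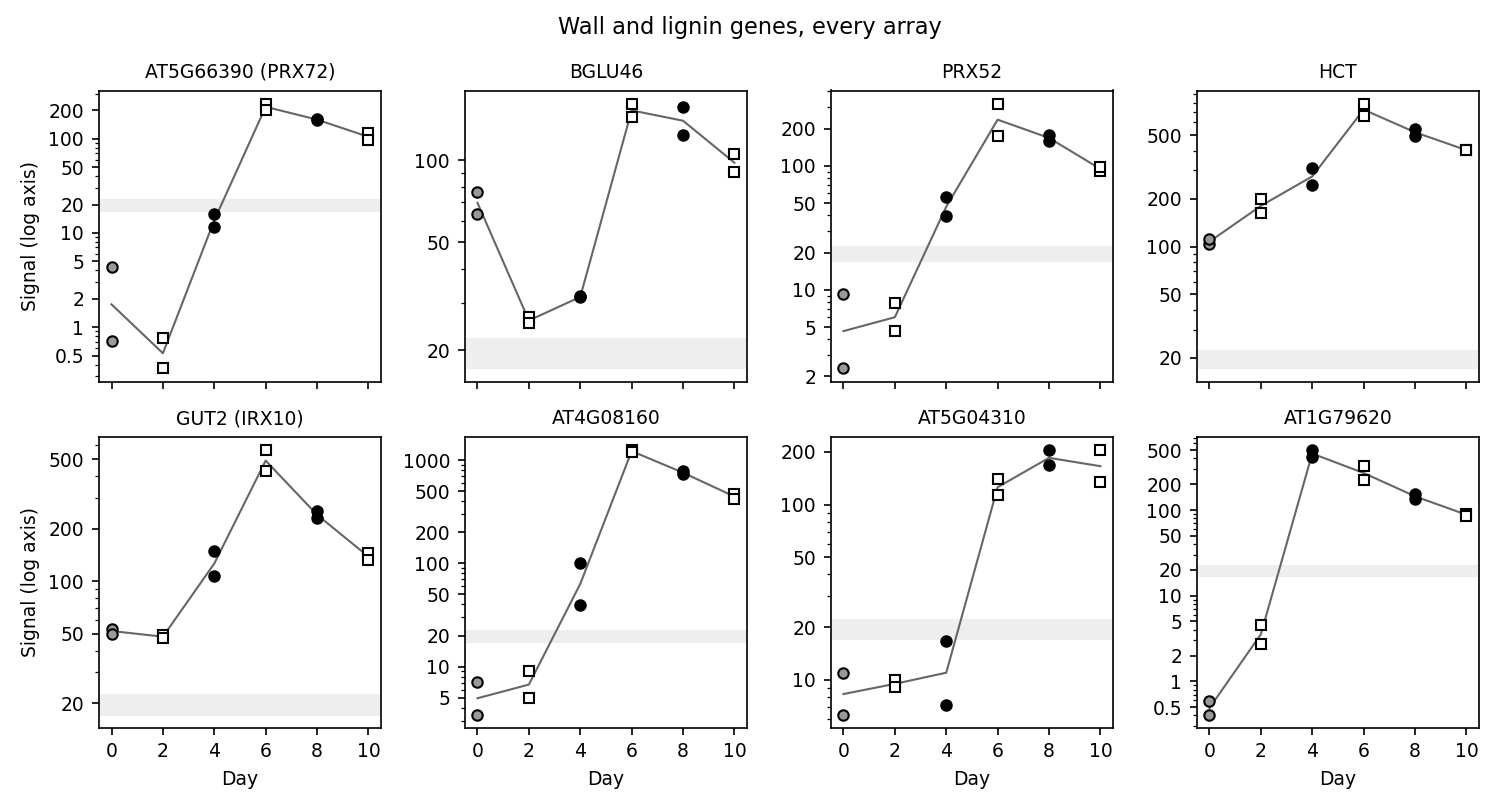
Signal (log axis) of 8 wall and lignin genes in every array against day; black circles are the arrays of days 4 and 8, grey circles those of day 0 and open squares those of the 27 C days, the line joins geometric means and the grey band spans the arrays' 40th percentiles. The other 7 genes are higher on day 8 than on day 4, and AT1G79620, at 413 and 503, has its top on day 4.

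Of 3 tested genes of xylan synthesis 1 was called. In all 3 both day 8 arrays lay above both day 4 arrays, as they did for 33.6% of all tested probe sets. GUT2 (IRX10), a xylosyltransferase of the xylan backbone, had 107 and 148 on day 4 and 251 and 229 on day 8 (log2 difference 0.93 ± 0.16, adjusted p = 0.00183). Its mean on day 6 was higher, 495. IRX15-L, a DUF579 protein of xylan deposition, had 59.2 and 95.7 on day 4 and 164 and 180.4 on day 8 and its partner IRX15 35.4 and 67.3 on day 4 and 67.7 and 94.3 on day 8. Neither was called (adjusted p = 0.158 and 0.539). The fit takes 1 spread per gene over all days, and both genes were dim on days 0 and 2, with mean signals of 4.94 and 1.6 for IRX15-L. With only the 4 arrays of the 2 days, or with arrays raised to their 40th percentile, IRX15-L was called (adjusted p = 0.0076 and 0.00119). Of 12 TBL proteins, a family that acetylates wall polymers, 1 rose and 3 fell. TBL36 had 257 and 325 on day 4 and 93.0 and 107 on day 8 (log2 difference -1.54 ± 0.24, adjusted p = 0.00109), and TBL34, which acts on xylan, 343 and 419 on day 4 and 609 and 561 on day 8 (log2 difference 0.62 ± 0.22, adjusted p = 0.0572).

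The few tested loci of vessel cell death had no common direction in their calls. XCP1, XCP2, MC9 and BFN1, also planned as markers, were not among those that the annotation named. Of 4 tested loci, 1 rose, 1 fell and 2 were not called. AT4G04460, the aspartic protease PASPA3 used as a marker of xylem cell death, had 1141 and 1258 on day 4 and 311 and 317 on day 8 (log2 difference -1.93 ± 0.12, adjusted p = 1.82e-06) and fell. Its day 4 arrays were the highest of the whole series. The serine carboxypeptidase-like gene scpl48, another death marker, had 1450 and 1726 on day 4 and 2547 and 2333 on day 8 and rose (log2 difference 0.62 ± 0.13, adjusted p = 0.00452). DMP4 (AT4G18425) had 190.4 and 227 on day 4 and 265 and 303 on day 8 (log2 difference 0.45 ± 0.16, adjusted p = 0.0586) and EXI1 (AT2G14095) 14.2 and 17.6 on day 4 and 46.2 and 31.6 on day 8 (adjusted p = 0.127). DMP4 and EXI1 were called with only the 4 arrays of the 2 days (adjusted p = 0.0352 and 0.0122).

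Other secreted or vacuolar proteases changed in both directions. SBTI1.1, a subtilase, had 330.3 and 333 on day 4 and 48.1 and 34.4 on day 8 (log2 difference -3.03 ± 0.19, adjusted p = 1.99e-06), the largest fall among 8 tested subtilases, of which 1 rose and 1 fell. Among 10 serine carboxypeptidase-like genes, SCPL45 had 955 and 1016 on day 4 and 419 and 334 on day 8 (log2 difference -1.40 ± 0.13, adjusted p = 2.79e-05) and SCPL27 92.2 and 107 on day 4 and 58.6 and 46.1 on day 8 (log2 difference -0.93 ± 0.17, adjusted p = 0.00252), and 2 others rose, scpl48 among them. The vacuolar processing enzyme ALPHA-VPE had 335 and 395 on day 4 and 253 and 290.4 on day 8 (log2 difference -0.42 ± 0.12, adjusted p = 0.0229), a call lost without day 4 replicate 2 (adjusted p = 0.175) or day 8 replicate 1 (adjusted p = 0.156). In each of these genes day 4 and day 8 arrays did not overlap, but this was a condition for naming most of them and is no separate result. The same was seen downwards for 30.4% and upwards for 33.6% of all tested probe sets.

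The largest fall of a named gene with no dim array was that of SWEET11, a sucrose exporter of the plasma membrane. Its signals were 603 and 674 on day 4 and 40.3 and 36.2 on day 8 (log2 difference -4.06 ± 0.17, adjusted p = 1.28e-07), and its mean on day 6 was 72.7. SWEET2, a vacuolar member of the family, rose from dim, with 15.1 and 15.4 on day 4 and 38.0 and 36.6 on day 8 (at least 1.87-fold, adjusted p = 0.0103). That call was lost without day 4 replicate 1, day 8 replicate 1 or day 8 replicate 2, with adjusted p between 0.0534 and 0.0581. Of the 5 tested members, 2 rose and 1 fell (40% and 20%, against 12% and 11.5% of all named genes).

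Of 6 tested expansins and expansin-like genes 2 rose and 1 fell, with a median of -0.07, and with quantile normalization or centring 2 fell. EXPA4, an expansin, had 692 and 856 on day 4 and 209.6 and 217 on day 8 (log2 difference -1.85 ± 0.25, adjusted p = 0.000367), while the expansin-like EXLA1 had 90.1 and 104 on day 4 and 186 and 288 on day 8 (log2 difference 1.26 ± 0.16, adjusted p = 0.000281). EXLA3, tested through day 8 alone, had 13.4 and 15.0 on day 4 and 43.7 and 47.5 on day 8 and rose from dim by at least 2.28-fold (adjusted p = 0.00332). Day 4 and day 8 arrays were apart in all 3, which was a condition for naming them. They were apart upwards in 33.6% and downwards in 30.4% of all tested probe sets. Of 11 genes listed with wall glucan and mannan synthases 1 rose and 1 fell. The one that fell, SKU5, is no synthase but a GPI-anchored glycoprotein of directional growth. It had 252 and 293 on day 4 and 120.2 and 144 on day 8 (log2 difference -1.05 ± 0.17, adjusted p = 0.00123). EXO (EXORDIUM), a growth gene induced by brassinosteroids and 1 of 2 tested brassinosteroid genes, both of which rose, had 41.1 and 39.7 on day 4 and 99.9 and 125 on day 8 (log2 difference 1.47 ± 0.20, adjusted p = 0.000393). The mean signal of EXO was higher before, 1162 on the untreated day 0 and 331 on day 2. Of 5 tested GH9 endoglucanases 1, tested through day 8 alone, rose and 2 fell, GH9C2 among the falls with 130.3 and 215 on day 4 and 81.7 and 93.6 on day 8 (log2 difference -0.94 ± 0.20, adjusted p = 0.00649).

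Tubulin genes fell. Of 9 tubulins and microtubule proteins tested, 6 fell and 0 rose, with a median of -0.47, and with arrays centred on their medians 8 fell. Of the 9, 6 were as bright as the 3457 brightest probe sets, of which 23.5% fell, and 6 of the 9 fell after quantile normalization too. TUB5, a beta-tubulin, had 95.4 and 94.9 on day 4 and 36.7 and 34.0 on day 8 (log2 difference -1.43 ± 0.24, adjusted p = 0.00134), and the alpha-tubulin TUA6 had 1743 and 1736 on day 4 and 1091 and 931 on day 8 (log2 difference -0.79 ± 0.09, adjusted p = 0.000138). TUB6, KINESIN-13A and TUB9 fell by 0.75, 0.47 and 0.43 on the log2 scale. TUB1 had 138 and 138 on day 4 and 97.7 and 96.1 on day 8 (log2 difference -0.51 ± 0.14, adjusted p = 0.0228), a call lost without any 1 of the 4 arrays, with adjusted p between 0.0781 and 0.0973. Of these 6 genes 5 had their highest mean on day 4 among the 6 days.

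Microtubule-binding proteins of the IQD and TRM families and their relatives gave 4 falls and 1 rise among 14 tested. These are 28.6% and 7.14%, against 11.5% and 12% of all named genes. Of the 14, 1 was tested through day 8 alone and 1 through day 4 alone. SP1L3, of the SPIRAL1 family, had 358 and 360 on day 4 and 179 and 201 on day 8 (log2 difference -0.92 ± 0.12, adjusted p = 0.000267), IQD31 349.9 and 412 on day 4 and 242 and 221 on day 8 (log2 difference -0.72 ± 0.11, adjusted p = 0.000962) and IQD30 111 and 145 on day 4 and 81.2 and 68.0 on day 8 (log2 difference -0.77 ± 0.14, adjusted p = 0.00287). In actin regulation, PIR121, a subunit of the SCAR/WAVE complex that starts new filaments, had 389 and 392 on day 4 and 184 and 162 on day 8 (log2 difference -1.18 ± 0.12, adjusted p = 6.2e-05). The 17 tested actin, LIM and NET genes gave 3 rises and 3 falls including PIR121, against 2 and 6 with centring and 1 and 2 after quantile normalization. Of 9 exocyst and secretion genes 2 fell (1 after quantile normalization) and 0 rose. EXO84B fell, with 105 and 124 on day 4 and 70.6 and 75.4 on day 8 (log2 difference -0.65 ± 0.12, adjusted p = 0.00306). TET7, a tetraspanin of the plasma membrane, had 158 and 164 on day 4 and 80.0 and 85.9 on day 8 (log2 difference -0.96 ± 0.10, adjusted p = 9.39e-05).

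**Figure D3:**
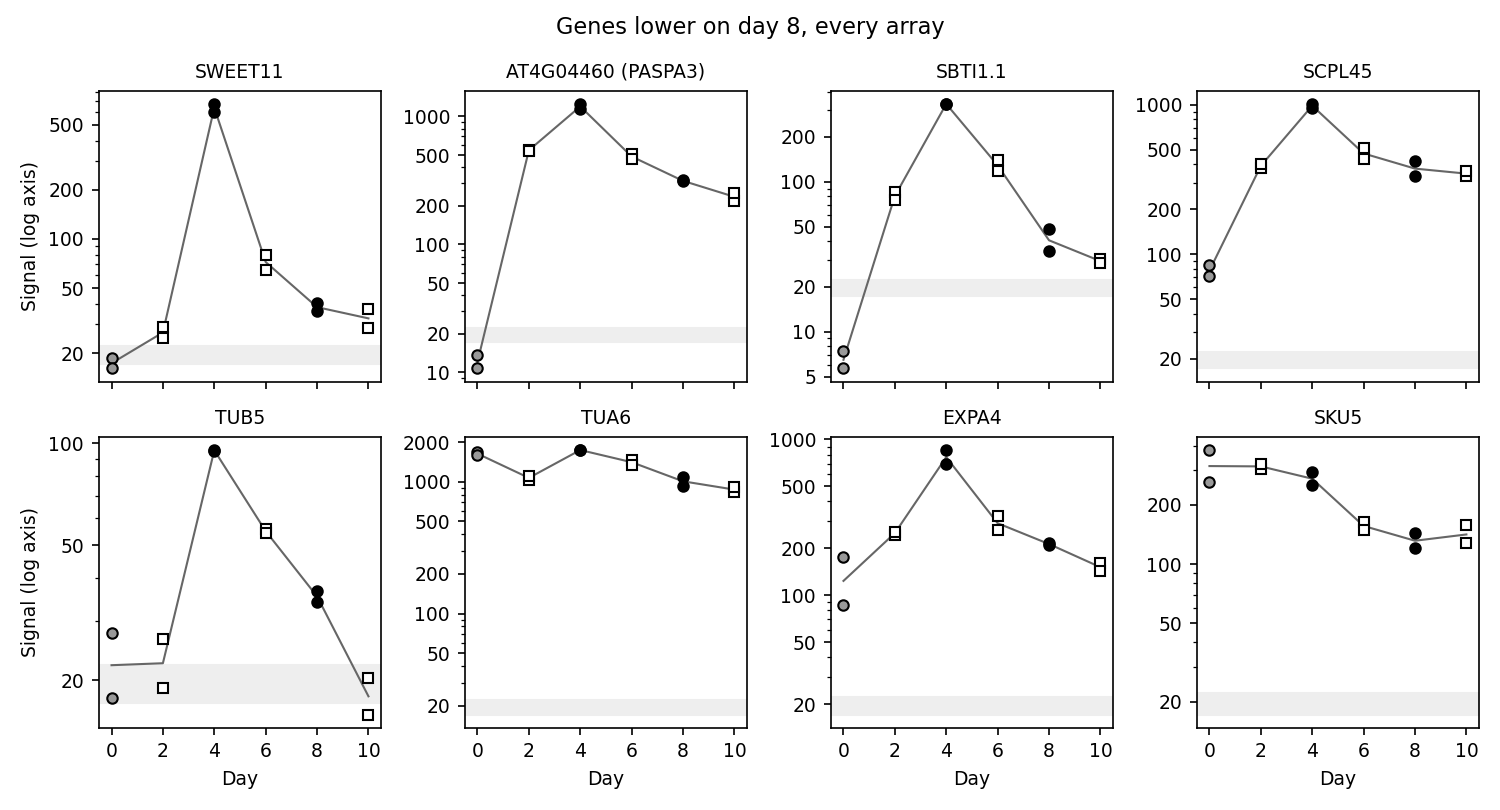
Signal (log axis) of 8 genes that fell from day 4 to day 8, in every array against day; symbols, line and band as in the plot of wall and lignin genes. SWEET11 drops from 603 and 674 to 40.3 and 36.2. In all panels both day 8 arrays lie below both day 4 arrays, which was a condition for naming these genes.

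Of 33 tested genes of replication, mitosis and chromosomes, 8 fell and 0 rose, against 11.5% and 12% of all named genes. The median of the 33 was -0.16, and 14 fell with arrays centred on their medians and 10 after quantile normalization. The numbers for the 33 leave out AT1G53000, which its symbol CKS had put in the list but which encodes an enzyme of pectin sugar activation. TON1B, needed for the preprophase band of microtubules, had 244 and 251 on day 4 and 156 and 162 on day 8 (log2 difference -0.64 ± 0.08, adjusted p = 0.000273). TPLATE, a membrane trafficking protein that reaches the cell plate, had 182 and 162 on day 4 and 113 and 123 on day 8 (log2 difference -0.54 ± 0.10, adjusted p = 0.00317). BUB3.1 of the spindle checkpoint fell by 0.46 on the log2 scale, a call lost without day 4 replicate 2 (adjusted p = 0.0972) or day 8 replicate 2 (adjusted p = 0.0574). The log2 change of AT1G53000 was -1.07 ± 0.26, and it lost its call without day 4 replicate 2 (adjusted p = 0.0616) or day 8 replicate 1 (adjusted p = 0.0857).

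In primary metabolism 6 of 16 tested genes of the tricarboxylic acid cycle and ATP-citrate lyase fell and 0 rose, with a median of -0.2. Of the 16, 11 were as bright as the 3457 brightest probe sets, and after quantile normalization 4 fell and 1 rose. ACLA-1, a subunit of the cytosolic ATP-citrate lyase that makes acetyl-CoA, had 1033 and 1136 on day 4 and 806 and 818 on day 8 (log2 difference -0.42 ± 0.09, adjusted p = 0.0073) and the succinate dehydrogenase subunit SDH2-1 568 and 599 on day 4 and 438 and 483 on day 8 (log2 difference -0.34 ± 0.08, adjusted p = 0.00795). Without day 4 replicate 2 neither was called (adjusted p = 0.0609 and 0.0567), and SDH2-1 was not called without day 8 replicate 1 (adjusted p = 0.0664). Of 17 genes of amino acid breakdown 5 rose and 2 fell (29.4% and 11.8%, against 12% and 11.5% of all named genes), and centring left 2 rises and 2 falls. AT4G33150, the bifunctional enzyme LKR/SDH of lysine breakdown, had 240.3 and 282 on day 4 and 449.6 and 474 on day 8 (log2 difference 0.83 ± 0.16, adjusted p = 0.00289), and the formate dehydrogenase FDH 175 and 153 on day 4 and 330.3 and 359.8 on day 8 (log2 difference 1.07 ± 0.27, adjusted p = 0.0126), the latter not called without day 4 replicate 2 (adjusted p = 0.0769) or day 8 replicate 2 (adjusted p = 0.0731).

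Of 69 tested genes of the plastid genome 9 rose and 0 fell, with a median of 0.33. The 13% that rose is near the 12% of all named genes, and 5 of the 69 were tested through day 8 alone. The 0 falls stand against 11.5% of all named genes, and the median against 0.014. With the replicate number added to the fit as a block, 29 of the 69 were called higher, where 1901 of all 13826 probe sets were. Of 13 mitochondrial nad, cox and ccb genes 0 rose and 2 fell. Among 4 tested nuclear genes of photosynthesis, RCA, which encodes rubisco activase, had 60.2 and 66.0 on day 4 and 144 and 159 on day 8 (log2 difference 1.26 ± 0.14, adjusted p = 9.67e-05), and LHCB4.3, of the light-harvesting antenna, 38.6 and 33.9 on day 4 and 114 and 84.4 on day 8 (log2 difference 1.44 ± 0.33, adjusted p = 0.00842). LHCB4.3 lost its call without day 4 replicate 2 (adjusted p = 0.0539) or day 8 replicate 1 (adjusted p = 0.0668). NRPA1, the largest subunit of RNA polymerase I, had 103 and 107 on day 4 and 145 and 141 on day 8 and rose by 0.45 ± 0.09. Its partner NRPA2 had 266 and 251 on day 4 and 349 and 326 on day 8 and rose by 0.39 ± 0.08. Of 10 tested genes of that polymerase and of ribosome assembly, 3 rose (30%, against 12% of all named genes) and 0 fell (against 11.5%). The median of the 10 was -0.02, and 2 rose with arrays centred on their medians and 3 after quantile normalization. All 3 that rose had their highest mean on day 2.

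Auxin response genes were few on the array annotation, 8 tested, of which 2 rose and 1 fell. These are 25% and 12.5%, against 12% and 11.5% of all named genes. GH3.3, which conjugates auxin to amino acids and is induced by it, had 1.75 and 5.32 on day 4 and 147 and 172 on day 8 and rose at least 7.98-fold (adjusted p = 3.01e-06). It was tested through day 8 alone, so its rise was partly given by the filter. Its day 4 arrays were the lowest of any day, against 501 and 539 on day 0. LBD16, a transcription factor of lateral root founder cells, had 24.9 and 24.9 on day 4 and 68.9 and 56.0 on day 8 (log2 difference 1.32 ± 0.17, adjusted p = 0.000321). GH3.17, a conjugating enzyme of the same family, fell, with 313 and 296 on day 4 and 164 and 187 on day 8 (log2 difference -0.80 ± 0.09, adjusted p = 0.000127).

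Genes of conjugation and detoxification were read as 2 families. Of 24 tested UDP-glycosyltransferases, which attach sugars to small molecules, 10 rose and 1 fell, with a median of 0.43. The 10 include the 2 monolignol enzymes above, and 5 of the 24 were tested through day 8 alone and 3 through day 4 alone. GT72B1, UGT72E1 and UGT73B4 were tested through day 8 alone, so their rises were partly given by the filter. UGT71C2 had 42.8 and 32.2 on day 4 and 128 and 143 on day 8 (log2 difference 1.86 ± 0.17, adjusted p = 2.97e-05) and UGT85A2 234 and 252 on day 4 and 386 and 512 on day 8 (log2 difference 0.87 ± 0.12, adjusted p = 0.000367). UGT73B4, with 1 dim array on day 4, had 20.5 and 26.8 on day 4 and 57.0 and 66.6 on day 8 (at least 2.62-fold, adjusted p = 0.000129). Of the 10, 4 had their highest mean on day 0, 4 on day 10, 2 on day 8 and 0 on day 6. The 7 tested glutathione transferases, of 13 named, gave 3 rises and 4 falls. The rise of GSTF4 and the fall of GSTU26 were partly given by the filter, since these were tested through 1 day alone. GSTU26 had 61.0 and 57.4 on day 4 and 10.2 and 16.2 on day 8 (at least 2.69-fold lower, adjusted p = 7.98e-05), GSTU25 1082 and 1116 on day 4 and 394 and 556 on day 8 (log2 difference -1.23 ± 0.15, adjusted p = 0.000255) and GSTU27 46.7 and 39.5 on day 4 and 89.5 and 83.6 on day 8 (log2 difference 1.01 ± 0.17, adjusted p = 0.00132).

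Among stress genes, LTI30, a dehydrin, had 69.6 and 94.6 on day 4 and 169.8 and 228 on day 8 (log2 difference 1.28 ± 0.19, adjusted p = 0.000803). OSM34, an osmotin-like protein, had 672 and 702 on day 4 and 1183 and 1396 on day 8 (log2 difference 0.90 ± 0.23, adjusted p = 0.0132), a call lost without day 4 replicate 1, day 4 replicate 2 or day 8 replicate 2, with adjusted p between 0.053 and 0.0911. The immunophilin AT5G48570 (ROF2) was the largest of 4 rises among 15 heat shock proteins and co-chaperones, with 131 and 143 on day 4 and 199.7 and 237 on day 8 (log2 difference 0.67 ± 0.13, adjusted p = 0.00348). The transcription factors BZIP53, from the list of sugar starvation genes, and WRKY47 rose by 0.62 ± 0.11 and 0.73 ± 0.13, and each was the only called gene of 3 tested in its list. BGLU44, a beta-glucosidase family member, had 84.0 and 77.2 on day 4 and 12.6 and 9.85 on day 8 and fell at least 3.65-fold (adjusted p = 2.26e-05).

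**Figure D4:**
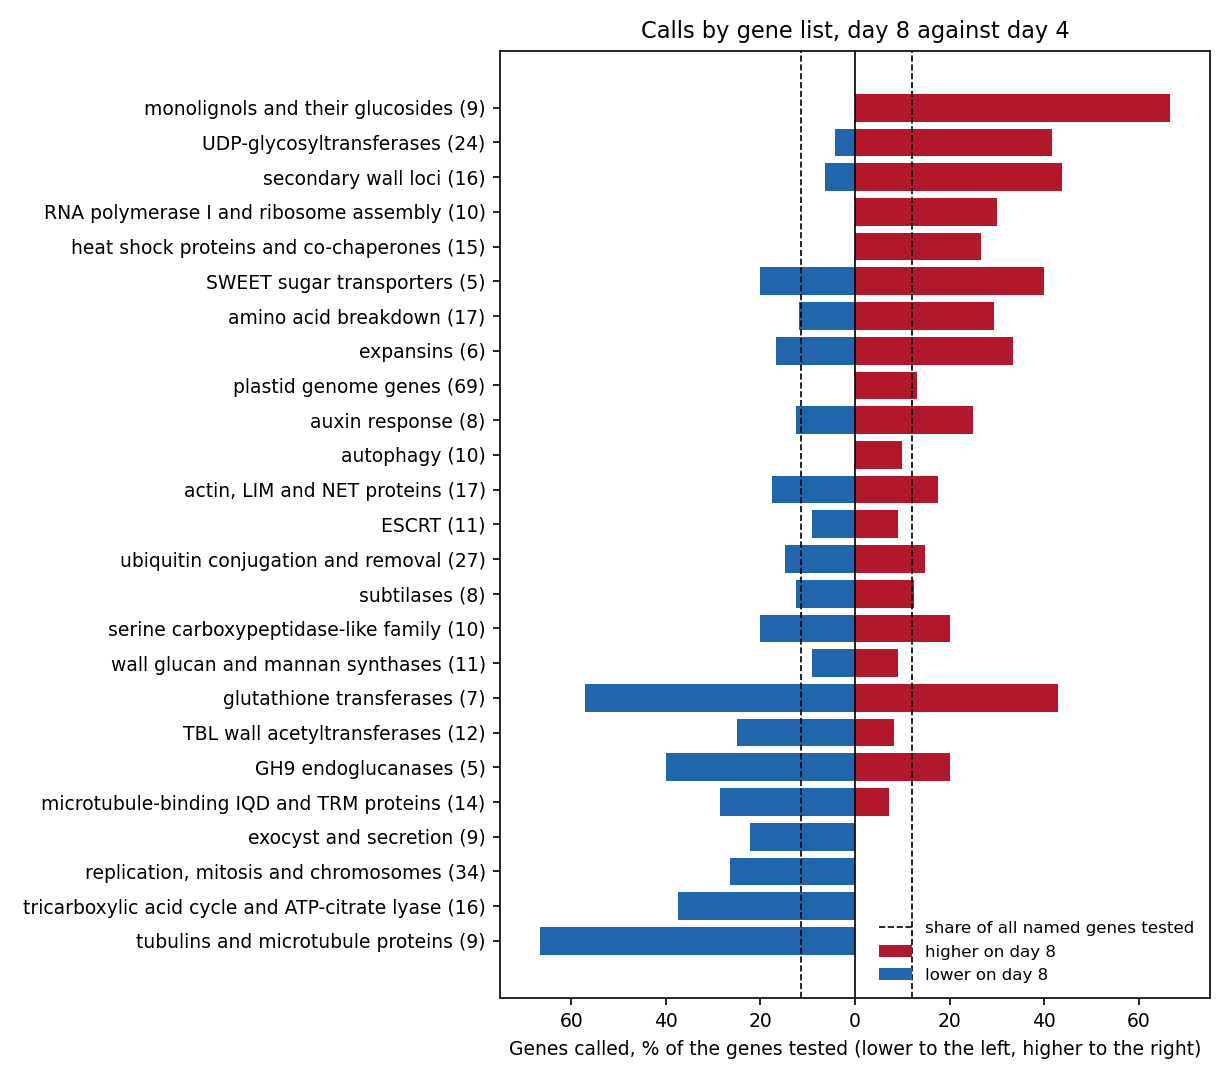
Genes called higher (red, to the right) and lower (blue, to the left) on day 8 as a percentage of the genes tested in 25 lists, with the number tested in brackets; dashed lines mark 12% higher and 11.5% lower among all named genes. Monolignol genes (6 of 9 higher) stand at one end and tubulins (6 of 9 lower) at the other; the list of replication and mitosis, 34 genes here, includes AT1G53000.

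Outside the lists, the largest rises of named genes came from several families. Probe sets with no gene or several genes in the annotation were not ranked. The bound was highest for AT5G23750, a remorin, with 18.5 and 15.2 on day 4 and 376 and 321 on day 8 (at least 17.4-fold). AT1G68230, a reticulon-like protein of endoplasmic reticulum membranes, came next with 12.5 and 20.6 on day 4 and 162 and 528 on day 8 (at least 14.1-fold), and its 2 day 8 arrays were far apart. The peroxidase AT4G33420 (PRX47) had 26.3 and 13 on day 4 and 290.2 and 297 on day 8 (at least 13.1-fold). Above the limit on both days, the MATE-type efflux carrier AT2G04050 had 33.8 and 30.3 on day 4 and 271 and 278 on day 8 (log2 difference 3.10 ± 0.31, adjusted p = 6.28e-05) and the papain-like cysteine protease AT1G29090 20.9 and 27.0 on day 4 and 164 and 179 on day 8 (log2 difference 2.85 ± 0.16, adjusted p = 1.27e-06). The arrays of each day lay close together in both genes.

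A pair of BAHD-type acyltransferases, the enzyme family to which HCT belongs, was also among the 12 largest rises of named genes above the limit. AT5G07080 had 125 and 293 on day 4 and 913 and 982 on day 8 (log2 difference 2.31 ± 0.33, adjusted p = 0.000535). AT5G01210 had 34.7 and 36.9 on day 4 and 185 and 171 on day 8 (log2 difference 2.31 ± 0.26, adjusted p = 0.000142). The glucanase AT4G16260, of glycoside hydrolase family 17, had 50.8 and 57.8 on day 4 and 244 and 332 on day 8 (log2 difference 2.39 ± 0.25, adjusted p = 8.22e-05). Of the 6 others, AT5G19870, AT1G63310, AT5G45320, AT5G24570 and AT5G43180 rose by 3.24 ± 0.22, 3.15 ± 0.51, 2.61 ± 0.20, 2.41 ± 0.25 and 2.31 ± 0.36. AT3G50350 (log2 difference 2.36 ± 0.77, adjusted p = 0.0447) lost its call without any 1 of the 4 arrays, with adjusted p between 0.13 and 0.147, and with no filter (0.0692) or no variance trend (0.0838).

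Among the falls of named genes, the neighbouring genes AT5G38160 and AT5G38170 of lipid-transfer-like proteins had the highest bounds. AT5G38160 had 551 and 460 on day 4 and 13.7 and 19.3 on day 8, at least 22.8-fold lower, and AT5G38170 414 and 412 on day 4 and 14.0 and 17.5 on day 8, at least 18.7-fold lower. The GDSL lipase AT1G71250 had 363 and 350.4 on day 4 and 9.93 and 10.9 on day 8, at least 16.2-fold lower, and AT5G12460 264 and 286 on day 4 and 12.1 and 11.3 on day 8, at least 12.5-fold lower. All 4 were dim on both day 8 arrays and bright on both of day 4. The universal stress family protein AT3G11930 had 202 and 201 on day 4 and 22.5 and 24.4 on day 8 (log2 difference -3.10 ± 0.34, adjusted p = 0.000101), the germin-like AT3G10080 1255 and 1405 on day 4 and 248 and 206 on day 8 (log2 difference -2.55 ± 0.30, adjusted p = 0.000167) and the pectate lyase-like AT3G53190 821 and 980.4 on day 4 and 171 and 229 on day 8 (log2 difference -2.18 ± 0.17, adjusted p = 8.7e-06).

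The fructokinase family gene AT3G59480 had 1023 and 1026 on day 4 and 271 and 281 on day 8 (log2 difference -1.89 ± 0.27, adjusted p = 0.00064), and the receptor kinase AT5G48740 134 and 156 on day 4 and 37.6 and 35.4 on day 8 (log2 difference -1.99 ± 0.27, adjusted p = 0.000406). The arrays of each day differed little from each other. AT3G24450, a heavy-metal-domain protein, fell by 2.37, AT2G28410 by 2.23 and AT3G61930 by 1.93 on the log2 scale. AT4G23670, of the major latex protein family, had 103 and 135 on day 4 and 27.3 and 35.9 on day 8 (log2 difference -1.92 ± 0.50, adjusted p = 0.0159), a call lost without day 4 replicate 1, day 4 replicate 2 or day 8 replicate 1, with adjusted p between 0.0515 and 0.0967.

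The position of day 4 and day 8 in the whole course differed between rises and falls. Of the 1646 probe sets that fell, 748 (45.4%) had their highest mean on day 4, against 14% of all tested, and 57 (3.46%) on day 6. Of the 1772 that rose, 288 (16.3%) were highest on day 8 and 590 (33.3%) on day 10, against 7.46% and 16% of all tested, and 456 (25.7%) on day 0. The calls use the day 4 and day 8 arrays, so these shares are a description.

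The interval from day 4 to day 8 was set against the other 4-day intervals at 1 labelled temperature, day 2 to 6 and day 6 to 10, both at 27 C. These share no array with days 4 and 8, but labelled temperature and time since transfer cannot be told apart between the intervals. From the day 2 to 6 change 5632 probe sets (40.7%) differed, and from the day 6 to 10 change 1208 (8.74%). The latter number was 770 without day 4 replicate 1 and 792 without day 8 replicate 2. It was 719 without day 6 replicate 1, 757 without day 10 replicate 1 and 700 without day 10 replicate 2.

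Of the 1772 rises, 669 were called higher from day 6 to 10 as well, 37.8% of them and 42% of the 1591 rises of that interval, where 11.5% of all tested probe sets rose. Of the 1646 falls, 488 fell again from day 6 to 10, 29.6% of them and 37.5% of the 1300 falls there, against 9.4% of all tested, and 31 rose. The day 2 to 6 interval shared 892 rises, 50.3% of the 1772 and 23.5% of its own 3795 (27.4% of all tested), and 753 falls, 45.7% of the 1646 and 19.5% of its own 3867 (28%).

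The groups were read against these intervals too, as a description, since the lists were chosen with earlier results of these data known. Of the 16 secondary wall loci, 11 changed more positively from day 4 to 8 than from day 6 to 10, against 5.26% of all tested probe sets, and 0 more negatively, against 3.48%. From the day 2 to 6 change 14 differed negatively, against 19.8% of all tested, and 0 positively, against 20.9%. Of the 9 monolignol genes 6 were more positive than from day 6 to 10 and 5 more negative than from day 2 to 6. For the 9 tubulins and microtubule proteins 0 differed from the day 6 to 10 change and 6 were more negative than from day 2 to 6. Of the 24 UDP-glycosyltransferases 9 were more positive and 4 more negative than from day 2 to 6.

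The largest differences from the day 2 to 6 change were read among genes called from day 4 to 8. Only genes with no dim array on any day, and no overlap of day 4 and day 8 arrays, were taken. Some genes with a dim array differed more, such as AT3G59480 (difference -6.105). EXO, MSRB9 (a methionine sulfoxide reductase), AT3G15810 and AT3G20370 (a TRAF-like protein) rose from day 4 to 8, by 1.47 ± 0.20, 2.17 ± 0.12, 1.58 ± 0.14 and 1.35 ± 0.16. From day 2 to 6 their changes were -2.82 ± 0.20, -1.55 ± 0.12, -1.92 ± 0.14 and -2.13 ± 0.16. AT4G34950 (a major facilitator family transporter), AT1G67510 (a receptor kinase), AT5G07800 (a flavin-containing monooxygenase) and AT2G05790 (a glucanase of glycoside hydrolase family 17) had changes of the opposite signs. From day 4 to 8 they were -0.33 ± 0.09, -1.11 ± 0.20, -1.16 ± 0.09 and -1.45 ± 0.23, and from day 2 to 6 3.88 ± 0.09, 2.93 ± 0.20, 2.82 ± 0.09 and 2.39 ± 0.23. The call of AT4G34950 was lost without day 4 replicate 1 (adjusted p = 0.161), day 8 replicate 1 (adjusted p = 0.05) or day 8 replicate 2 (adjusted p = 0.115), and with only the 4 arrays of days 4 and 8 (adjusted p = 0.0504).

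Against day 6 to 10, AT3G14360 (a lipase), BGLU46, GUT2 and AT1G63300 rose from day 4 to 8 and had changes of -1.46 ± 0.13, -0.64 ± 0.15, -1.83 ± 0.16 and -1.96 ± 0.23 from day 6 to 10. AT1G63300 (log2 difference 0.74 ± 0.23, adjusted p = 0.036) was not called without day 4 replicate 1 (adjusted p = 0.295), day 8 replicate 1 (adjusted p = 0.0629) or day 8 replicate 2 (adjusted p = 0.191). Its call was lost too with centring (adjusted p = 0.0739), quantile normalization (0.0558), no filter (0.0556), no variance trend (0.0608) or only the 4 arrays (0.0703). AT3G11930, AT5G47550 (a cystatin, an inhibitor of cysteine proteases), AT3G07350 and AT3G61930 fell from day 4 to 8, with changes of -0.30 ± 0.34, 1.03 ± 0.17, 0.41 ± 0.21 and 0.06 ± 0.21 from day 6 to 10. AT5G47550 had 246 and 278 on day 4 and 83.1 and 78.2 on day 8 (log2 difference -1.70 ± 0.17, adjusted p = 5.02e-05).

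**Figure D5:**
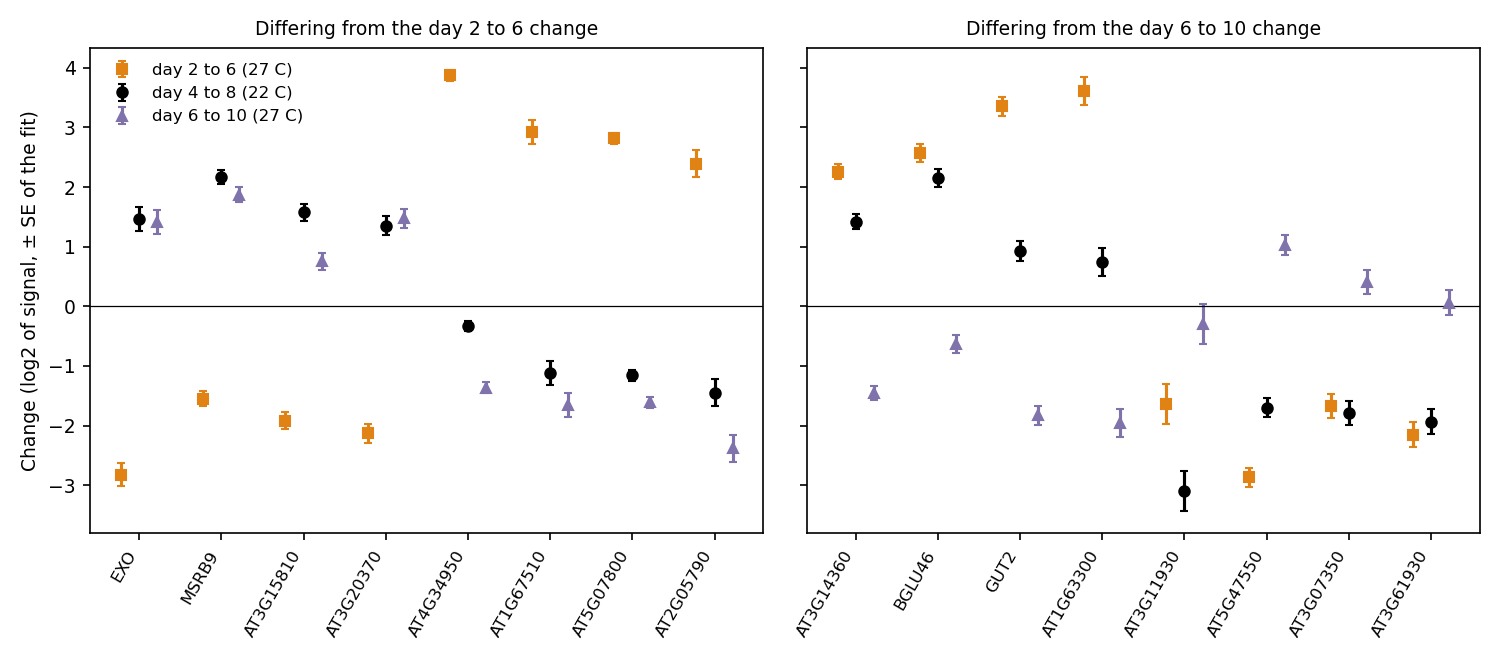
Log2 change (± standard error of the fit) from day 2 to 6 (orange squares), day 4 to 8 (black circles) and day 6 to 10 (purple triangles). The genes have the largest differences between day 4 to 8 and day 2 to 6 (left) or day 6 to 10 (right). They were ranked among called genes without overlap of day 4 and day 8 arrays and with no dim array on any day. EXO changes by -2.82, 1.47 and 1.42 in the 3 intervals and GUT2 by 3.35, 0.93 and -1.83.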

How the data were processed

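Probe set intensities on a linear scale were used as the authors deposited them. The submitters' processing notes name MAS5, with the version not given in the sources used here; every array has a trimmed mean of 100.01 (2% left out at each end). Log2 intensities were fitted in R 4.3.3 with limma 3.58.1 (lmFit, then eBayes with a mean-variance trend), with 1 mean per day over 12 arrays and Benjamini-Hochberg adjustment over 13826 probe sets. The number of arrays, 2 a day, limits the precision, and 6 residual degrees of freedom stand behind each test, with a median of 5.33 added by moderation. Contrasts were day 8 minus day 4, and its difference from the day 2 to 6 and day 6 to 10 changes. The fit was tested on simulated data.

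Genes came from the platform annotation, in which 13513 probe sets have 1 gene, 503 several and 8730 are not listed; 13436 matched RefSeq by gene identifier. Where a gene had several probe sets, the brightest over 12 arrays was taken. The comparison and the gene lists were chosen with earlier results of these data known, and some lists were added after the annotation was read. Named were the 12 largest rises and falls without a dim array and the 4 highest bounds each way. Up to 3 of the largest called changes each way in a list were named too. So were the 4 largest differences each way from each other interval. These were ranked among called genes without overlap of day 4 and day 8 arrays and with no dim array on any day. Some others in the lists were chosen after their values were seen. Genes dropped by the limit are not described. Names such as PASPA3, PRX66, PRX47, DMP4, EXI1, VRLK1 and ROF2, and the roles of loci without a symbol, are general knowledge, not from the annotation. Alternatives changed scaling, filter, pseudocount, variance model, pairing, shared probe sets and arrays.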

Additional observations from a re-analysis of the deposited data

Results flagged for a closer look

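The change from day 4 to day 8 differed from the day 2 to 6 change for 5632 probe sets and from the day 6 to 10 change for 1208, tested as differences between contrasts in the same limma fit. Labelled temperature and time since transfer cannot be told apart in either difference. The largest ones were read among genes with 1 annotated locus that were called from day 4 to 8. Only genes with no dim array on any day, and no overlap of day 4 and day 8 arrays, were taken. Some genes left out by this differed more. AT3G59480, dim on 1 array of the untreated day, differed by -6.105 from the day 2 to 6 change. AT5G19870, dim only before day 4, differed by 5.228 from the day 6 to 10 change.

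Relative to the day 2 to 6 change, the change from day 4 to 8 was more positive by 4.29 on the log2 scale for EXO, 3.71 for MSRB9, 3.5 for AT3G15810 and 3.48 for AT3G20370. The differences were -4.21 for AT4G34950, -4.04 for AT1G67510, -3.97 for AT5G07800 and -3.84 for AT2G05790.

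Relative to the day 6 to 10 change, they were 2.87 for AT3G14360, 2.79 for BGLU46, 2.76 for GUT2 and 2.71 for AT1G63300. On the negative side they were -2.8 for AT3G11930, -2.72 for AT5G47550, -2.19 for AT3G07350 and -1.99 for AT3G61930. All 16 differences kept their call under the 22 alternatives run for them, with the highest adjusted p, 0.0226, for AT3G11930 without day 10 replicate 2. Groups of 2 arrays are too small for a test of single outlying arrays.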

How the results depend on the processing

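The numbers of probe sets called higher and lower were 1772 and 1646, and other settings gave 1245 and 2830 with arrays centred on their medians, 1654 and 1815 after quantile normalization, 1682 and 1443 with no filter, 1325 and 1507 with the limit at the 60th percentile, and 1670 and 1409 without the variance trend. Leaving out an array of day 4 or 8 gave 1037 to 1240 higher and 923 to 1102 lower; leaving out one of another day, an alternative added after seeing the data, gave 1638 to 1911 and 1550 to 1701. The number differing from the day 2 to 6 change was 4746 to 5749 without 1 array, and that differing from the day 6 to 10 change 700 to 1366. The replicate numbers share only a number: deviations of replicate 1 on days 4 and 8 correlated at r = 0.159, and with the replicate block 1901 were higher and 1805 lower, with 0 of the named calls lost. The plastid genes called higher were 29 of 69 with that block, against 9.

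Of 108 called genes with a value in the text, 90 kept their call under every alternative and 18 lost it under at least 1, always including the loss of an array of day 4 or 8. AT5G51890, not called, was at -0.14 without day 8 replicate 2 and 0.74 without day 8 replicate 1. The genes IRX15-L, TBL34, AT4G18425 and AT2G14095 were not called in the report but were when dim arrays were raised to the limit or with only the 4 arrays of days 4 and 8, which changes the spread taken from other days. The limit at the 40th percentile bounds what can be read: 289 of the rises and 137 of the falls were tested through the bright day alone.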
